A study of Mus musculus with 10 samples.

Results

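Zinc transporters are the membrane proteins that set how much zinc a cell holds and where. A group of 10 genes of both mouse families was followed here through 5 sorted blood cell populations of DYRK1A-deficient and control mice. The genes are Slc30a1, Slc30a4, Slc30a5, Slc30a6, Slc30a7 and Slc30a9 of the SLC30 family and Slc39a1, Slc39a6, Slc39a7 and Slc39a10 of the SLC39 family. They were found by symbol, 1 row each, among 22923 gene symbols, and they make up 10 of the 24 genes of both families that were looked up. The group was selected on the FPKM values of these same libraries, and Slc30a4 was chosen by its much lower value in both CKO thymocyte libraries, so that difference is given as a description, with no test.

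All mice were C57bl/6 and 4 weeks old. The CKO mice carried the genotype Dyrk1a -/-, Mx1-Cre+, and the control mice Dyrk1a flox/flox, Mx1-Cre-. DYRK1A is a protein kinase that acts on cell cycle exit, and Mx1-Cre is a recombinase driven by an interferon-inducible promoter that is active in blood cells and in many other tissues; the labels name no inducing agent. The CKO mice therefore differ from control in Cre as well as in Dyrk1a. Thymi gave cycling and quiescent CD4+CD8+ thymocytes, and bone marrow gave large pre-B cells, small pre-B cells and mature granulocytes. Each population of each genotype was 1 library made from 2 pooled mice, 10 libraries in all, and the surface markers and gates used for sorting are not named. Values are FPKM, fragments scaled to the length of the transcript and to the mapped fragments of the library. They can be set against each other between genes. Between libraries they compare only levels relative to the rest of each library. In bulk RNA of this kind, fewer cells of a type and less RNA per cell cannot be told apart.

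SLC30 proteins, also called ZnT, move zinc out of the cytosol, either across the plasma membrane or into an organelle. SLC39 proteins, also called ZIP, move it the other way, from outside the cell or from an organelle into the cytosol. ZnT1 (Slc30a1) is the plasma membrane exporter and is induced by zinc through the transcription factor MTF1, which binds metal response elements in the promoters of its targets. ZnT4 (Slc30a4) loads vesicles and the trans-Golgi network, and its loss is the cause of the lethal milk trait in mice. ZnT5 and ZnT6 (Slc30a5, Slc30a6) work as a heterodimer in the early secretory pathway, and ZnT7 (Slc30a7) works there too, supplying zinc to enzymes such as alkaline phosphatase, while ZnT9 (Slc30a9) is a mitochondrial protein. ZIP1, ZIP6 and ZIP10 (Slc39a1, Slc39a6, Slc39a10) bring zinc in at the plasma membrane, and ZIP7 (Slc39a7) releases it from the endoplasmic reticulum and Golgi; ZIP7 and ZIP10 are both known to be needed by developing B cells.

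The libraries listed 9818 to 10350 genes at 1 FPKM or more. The marker lists matched the labelled populations: 7 of 7 thymocyte markers reached 1 FPKM in each thymocyte library, with a summed level of 1463 to 2727 FPKM, and 8 of 8 pre-B markers did so in each pre-B library, with 2461 to 4888 FPKM. Of 10 granulocyte markers, S100a9 was listed at 0 in both granulocyte libraries, and Ngp and S100a8 were listed at 0 in the control library but at 39820 and 246100 FPKM in the CKO library; the other 7 summed to 51230 FPKM in CKO and 62800 FPKM in control and were each lower in CKO. Dyrk1a was at 34.4 to 44.7 FPKM in the CKO libraries and at 31.2 to 37.4 FPKM in the control libraries, so its gene-level value does not check the genotype. Y-linked transcripts (Uty, Kdm5d, Eif2s3y and Ddx3y, summed) were at 19.7 to 77.5 FPKM in CKO libraries and at 0.02 to 0.12 FPKM in control libraries, so that the sex of the pooled mice and the genotype cannot be told apart in any comparison below. Mki67, a marker of dividing cells, was at 48.3 FPKM in CKO quiescent thymocytes and at 1.70 FPKM in control ones. In small pre-B cells it was at 75.5 FPKM in CKO and 35 FPKM in control. The non-cycling libraries thus held this transcript, more of it in CKO. Dividing cells in the sort and transcript kept by non-dividing cells cannot be told apart in bulk RNA. The libraries labelled mature granulocytes held Mki67 too, at 95.15 FPKM in CKO and 75.96 FPKM in control.

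Metal response elements were looked for in the promoters, taken as 250 bases before to 50 bases after each RefSeq start (GRCm38.p6). The motif was the core TGCACNC or TGCGCNC on either strand; the letters of both differ at a single base, so that no stretch can match both on the same strand, and matches on opposite strands may overlap. Promoters were held for 9 of the 10 genes (10 promoters, a pair of them for Slc39a10), and Slc39a6 had none. The core was present in 3 of the 9 genes, 3 times in Slc30a4, with first bases at -228, -92 and -6 from the start, 2 times in Slc30a1, at -43 and 31, and 1 time in Slc30a5, at -48. Of 32851 mouse promoters of the same length 25.7% held the core at least 1 time, 7.11% at least 2 times and 1.97% at least 3 times. Mt1, a metallothionein gene and a classical MTF1 target, held it 3 times. These 4 promoters are shown since they belong to the member with the large genotype difference, to the members with the largest differences between the lymphoid lineages in each direction, and to the known target they can be read against. They run 5′ to 3′ on the gene's own strand and capitals mark the core. They lie at chr2:122702614-122702913 on the minus strand for Slc30a4, chr1:191906531-191906830 on the plus strand for Slc30a1, chr13:100833378-100833677 on the minus strand for Slc30a5 and chr8:94178839-94179138 on the plus strand for Mt1. A match is a description of the letters and not a bound site.
Slc30a4: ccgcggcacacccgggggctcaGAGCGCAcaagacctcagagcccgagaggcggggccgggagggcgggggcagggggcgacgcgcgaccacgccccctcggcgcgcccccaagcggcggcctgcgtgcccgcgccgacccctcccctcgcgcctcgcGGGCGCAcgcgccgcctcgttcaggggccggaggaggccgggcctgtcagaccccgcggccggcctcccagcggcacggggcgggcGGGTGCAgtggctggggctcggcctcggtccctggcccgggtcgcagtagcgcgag
Slc30a1: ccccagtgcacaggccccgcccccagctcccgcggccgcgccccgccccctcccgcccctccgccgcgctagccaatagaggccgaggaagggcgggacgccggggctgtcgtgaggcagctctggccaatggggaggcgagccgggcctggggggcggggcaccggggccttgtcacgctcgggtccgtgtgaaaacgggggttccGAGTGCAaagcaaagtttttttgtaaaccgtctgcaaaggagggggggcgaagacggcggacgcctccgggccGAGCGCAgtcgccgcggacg
Slc30a5: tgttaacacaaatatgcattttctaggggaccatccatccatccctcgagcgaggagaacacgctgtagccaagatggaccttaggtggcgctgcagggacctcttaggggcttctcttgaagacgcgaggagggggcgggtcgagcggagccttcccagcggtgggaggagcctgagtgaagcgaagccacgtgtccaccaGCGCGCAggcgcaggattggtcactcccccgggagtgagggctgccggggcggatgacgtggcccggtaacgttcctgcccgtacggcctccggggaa
Mt1: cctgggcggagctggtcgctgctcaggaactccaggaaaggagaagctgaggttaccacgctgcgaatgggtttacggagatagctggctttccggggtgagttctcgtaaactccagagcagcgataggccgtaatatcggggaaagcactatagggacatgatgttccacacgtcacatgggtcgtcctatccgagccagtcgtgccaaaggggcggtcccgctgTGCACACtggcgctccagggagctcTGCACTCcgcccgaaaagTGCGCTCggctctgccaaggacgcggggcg

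Slc30a4 (ENSMUSG00000005802.12, chr2:122681233-122702663 on the minus strand of mm10) was the member that differed most between CKO and control. In cycling thymocytes it was at 1.72 FPKM in CKO and 17.9 FPKM in control, and in quiescent thymocytes at 2.86 FPKM in CKO and 23.5 FPKM in control. The CKO level was thus 9.59% of control in cycling and 12.2% of control in quiescent thymocytes, and both CKO libraries lay far below both control libraries. In large pre-B cells it was at 10.6 FPKM in CKO and 15.9 FPKM in control, and in small pre-B cells at 11.4 FPKM in CKO and 17.9 FPKM in control. Both CKO pre-B libraries were again below both control ones, but by a smaller margin. Granulocytes held almost no Slc30a4, with 0.11 FPKM in CKO and 0.21 FPKM in control. Among the CKO lymphoid libraries the pre-B cells thus had several times the level of the thymocytes, while the 4 control lymphoid libraries lay close together, at 15.9 to 23.5 FPKM.

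**Figure D1:**
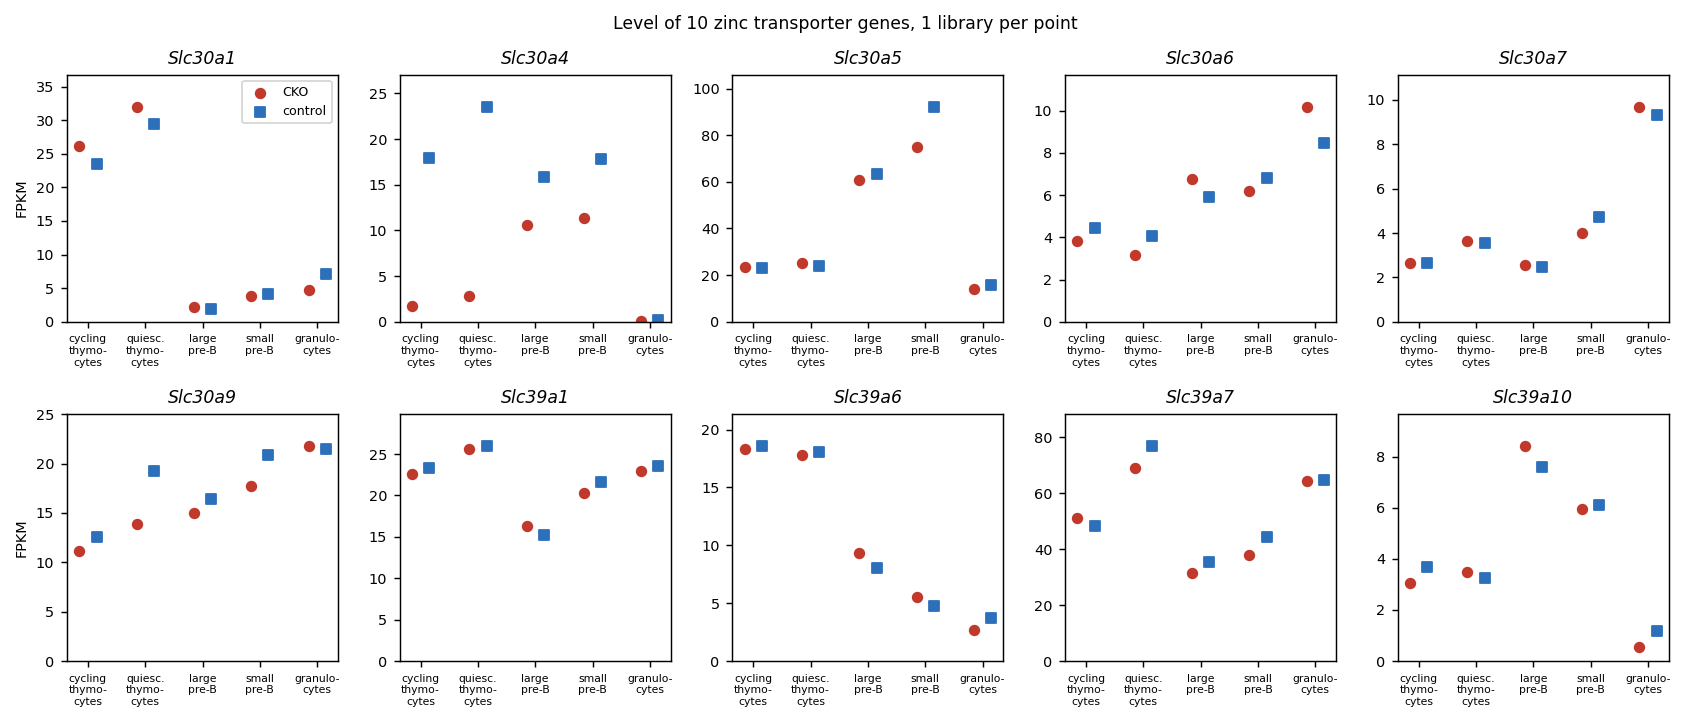
Level of each of the 10 zinc transporter genes in FPKM (vertical axes, linear, starting at 0, with a different top for each gene) in 5 populations; each point is 1 library, CKO as circles and control as squares. Slc30a4 stands out by the distance between circles and squares in thymocytes (1.72 and 2.86 against 17.9 and 23.5 FPKM), while the other genes differ mainly between populations.

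The log2 ratio of CKO to control, computed as log2 of FPKM + 1, was -2.80 for Slc30a4 in cycling thymocytes, -2.67 in quiescent thymocytes, -0.54 in large pre-B cells, -0.61 in small pre-B cells and -0.13 in granulocytes. It was below 0 in 5 of 5 populations. Among genes that reached 5 FPKM in CKO or control, the ratio of Slc30a4 was the 9th lowest of 7755 in cycling thymocytes and the 6th lowest of 7852 in quiescent thymocytes. Low ranks there follow from how the gene was chosen, so nothing is read from them. In pre-B cells it ranked 283rd from the lowest of 7920 in the large cells and 524th of 8207 in the small cells. Whether the genotype difference itself differed between thymocytes and pre-B cells was not tested, since the thymocyte values chose the gene. The start of Slc30a4 overlaps an annotated transcript on the opposite strand, 4930417H01Rik, for which the tables hold no row, and whether the counting used strand is not known.

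Of the other 9 members none was counted as 2-fold different between CKO and control in any population. Only genes at 5 FPKM or more in one of both libraries were considered, and a difference was counted from a log2 ratio of 1 upward or -1 downward. In cycling thymocytes 7 members were considered and 1 was lower in CKO, Slc30a4, beside 0.374% of all genes considered that were higher and 0.58% that were lower. In quiescent thymocytes 7 members were considered and again only Slc30a4 was lower, beside 3.66% of genes higher and 1.6% lower. Since these contrasts chose Slc30a4, nothing is read from either count. In large pre-B cells 0 of 8 members considered differed, beside 0.871% of genes higher and 0.972% lower; in small pre-B cells 0 of 8, beside 4.52% higher and 1.78% lower; and in granulocytes 0 of 7, beside 0.571% higher and 1.76% lower. These shares of all genes are small, so that a count of 0 among 7 or 8 genes is near what the rest of the genes showed.

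The remaining ratios were close to 0. Among members considered and leaving Slc30a4 out, the log2 ratio ran between -0.16 (Slc30a9) and 0.15 (Slc30a1) in cycling thymocytes and between -0.45 (Slc30a9) and 0.11 (Slc30a1) in quiescent thymocytes. It ran between -0.16 (Slc39a7) and 0.20 (Slc39a6) in large pre-B cells and between -0.30 (Slc30a5) and 0.20 (Slc39a6) in small pre-B cells. In granulocytes the range was -0.50 (Slc30a1) to 0.24 (Slc30a6). The thymocyte ratios of the 3 members not considered there, Slc30a6, Slc30a7 and Slc39a10, were also within 2-fold, with values under 5 FPKM in both genotypes.

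**Figure D2:**
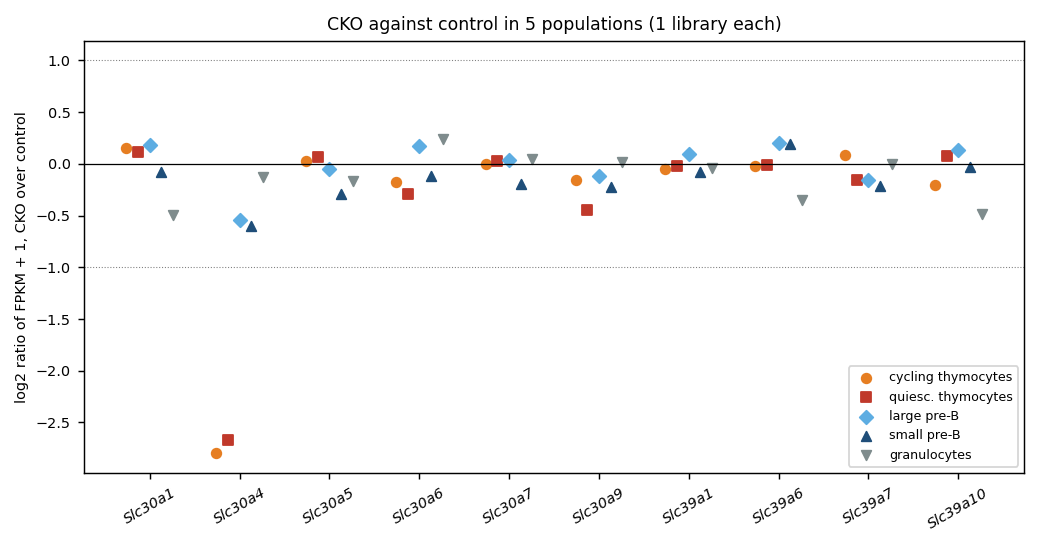
Log2 ratio of CKO to control (vertical axis, log2 of FPKM + 1) for each member, with 1 symbol per population and dotted lines at 2-fold. The 2 thymocyte points of Slc30a4, at -2.80 and -2.67, are the only ones beyond the dotted lines.

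A genotype test that leaves the thymocytes out was possible over the 3 bone marrow populations, with population as a block. In this limma fit 0 of 11187 genes were called at an adjusted p below 0.05, which is 0.0% of genes higher and 0.0% lower, although 438 genes were higher and 719 lower at an unadjusted p below 0.05. Accordingly 0 of 10 members were called. Slc30a4 was the 1 member with an unadjusted p below 0.05: it was lower in CKO in 3 of 3 populations, by a mean log2 difference of -0.43 ± 0.14 (SE), with a 95% interval of -0.79 to -0.06 and an adjusted p of 0.476 by limma. The other members had mean differences between -0.17 (Slc30a5) and 0.10 (Slc30a6), and the median over the 10 members was -0.12, beside -0.02 over all genes tested. Without the granulocyte pair, where Slc30a4 is near 0, the mean difference of Slc30a4 was -0.57 and the adjusted p by limma was 0.0559, in a fit with 1 residual degree of freedom that called 528 genes and 0 members. The p-values here and below measure the agreement between libraries that share pools of mice, not the spread between animals.

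Markers of other cell types also differed between the pre-B libraries of both genotypes. In small pre-B cells the summed level of 6 natural killer and innate markers was 110 FPKM in CKO (6 of 6 at 1 FPKM or more) and 12.8 FPKM in control (5 of 6). That of 5 plasmacytoid dendritic markers was 431.8 FPKM in CKO (5 of 5) and 142 FPKM in control (4 of 5), and that of 5 macrophage markers was 90.6 FPKM in CKO and 7.57 FPKM in control (2 of 5 each). The macrophage sum was mostly Mpeg1 (77.55 FPKM in CKO and 4.27 FPKM in control) and Cd68 (12.4 and 2.42 FPKM). Csf1r and C1qb were slightly lower in CKO and C1qa slightly higher, all under 1 FPKM. None of the markers in these 3 lists was listed at 0 in either small pre-B library. In large pre-B cells granulocyte markers summed to 439.7 FPKM in CKO (9 of 10) and 834 FPKM in control (10 of 10), and the natural killer and innate markers to 124 FPKM in CKO and 92.9 FPKM in control. Their part in the pre-B values of the members was not tested; without the small pre-B pair the mean difference of Slc30a4 over bone marrow was -0.33, and without the large pre-B pair it was -0.37. Thymocytes held few pre-B transcripts, with a summed level of 2.13 and 2.84 FPKM in CKO and 5.35 and 8.03 FPKM in control.

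The genes around Slc30a4 were also low in CKO thymocytes. Of the 6 genes with a row on each side, 12 in all, 7 reached 1 FPKM in a thymocyte library, and 7 of these 7 were lower in CKO in both thymocyte populations, where 49.7% of 10489 genes above that level were lower in cycling and also in quiescent thymocytes. At least 2-fold lower were 4 of the 7 in cycling thymocytes, beside 0.696% of all genes, and 3 of the 7 in quiescent thymocytes, beside 1.72%. The median log2 ratio of the 7 was -1.21 in cycling and -0.89 in quiescent thymocytes, beside 0.00 over all genes in both. These 7 genes lie between 220.1 kb on one side and 62.7 kb on the other, and the next genes on that far side, beginning with Sema6d at a distance of 1387.3 kb, were below 1 FPKM in every thymocyte library. The pattern is a description of 1 locus in 2 pairs of libraries from the same pools. The labels give C57bl/6 for both genotypes, and whether the pools differ in inherited sequence around this locus cannot be seen in values per gene and was not tested.

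Sqrdl, which encodes the mitochondrial sulfide oxidising enzyme now named Sqor and lies 62.7 kb from Slc30a4, was at 0.26 FPKM in CKO and 4.82 FPKM in control cycling thymocytes. In quiescent thymocytes it was at 0.41 FPKM in CKO and 7.04 FPKM in control. Its CKO level was thus 5.49% and 5.85% of control, lower still than that of Slc30a4. AA467197, 40.2 kb away on the other side, was at 0.37 and 1.28 FPKM in CKO cycling and quiescent thymocytes, against 2.50 and 3.10 FPKM in control. Both genes are abundant in granulocytes, where Sqrdl was at 266.8 FPKM in CKO and 291.5 FPKM in control, and AA467197 at 361.8 FPKM in CKO and 533.5 FPKM in control. The summed level of the 10 granulocyte markers in thymocytes was 51.9 FPKM in CKO and 44.7 FPKM in control cycling cells, and 48.1 FPKM in CKO and 48.0 FPKM in control quiescent cells.

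Bambi-ps1, annotated as a pseudogene, was at 16.3 FPKM in CKO and 39.0 FPKM in control cycling thymocytes, and at 44.8 FPKM in CKO and 205.2 FPKM in control quiescent thymocytes. Its parent gene Bambi had little of that difference, with 4.47 and 6.66 FPKM in CKO and control cycling cells and 3.29 and 3.37 FPKM in CKO and control quiescent cells, but the counting could have split reads between them. The nucleoside transporter gene Slc28a2 was at 5.30 and 17.1 FPKM in CKO cycling and quiescent thymocytes, against 7.83 and 32.6 FPKM in control. Its near copy Gm14085 (Slc28a2b) was at 0.56 and 3.23 FPKM in CKO, against 2.75 and 19.5 FPKM in control, and reads may be shared within this pair too. Pldn and Spata5l1 differed least. Pldn (Bloc1s6), a subunit of a complex that builds lysosome-related organelles, 35.8 kb away, was at 73.3% and 73.0% of control, and Spata5l1, 44.8 kb away, at 86.6% and 69.3%. In bone marrow 6 of the same 7 neighbours were lower in CKO in each population, by less in the median but not for each gene: the median log2 ratio was -0.24 in large pre-B cells, where 43.3% of the 10489 genes were lower, -0.37 in small pre-B cells (57.1%) and -0.15 in granulocytes (53.4%). In small pre-B cells Pldn was at -0.37 and Spata5l1 at -0.49, beside -0.37 and -0.19 in cycling and -0.36 and -0.48 in quiescent thymocytes. Slc28a2, at -0.49 and -0.89 in cycling and quiescent thymocytes, had log2 ratios of -0.37, -1.07 and -1.15 in large pre-B cells, small pre-B cells and granulocytes. Gm14085 had -0.24, -0.93 and -0.94, Sqrdl had -0.92, -0.07 and -0.13, AA467197 had -0.28, -0.16 and -0.56, and Bambi-ps1 had 0.04, 0.07 and -0.07 in the same order. Gatm, which was under 1 FPKM in thymocytes, had -1.46 in large pre-B cells.

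**Figure D3:**
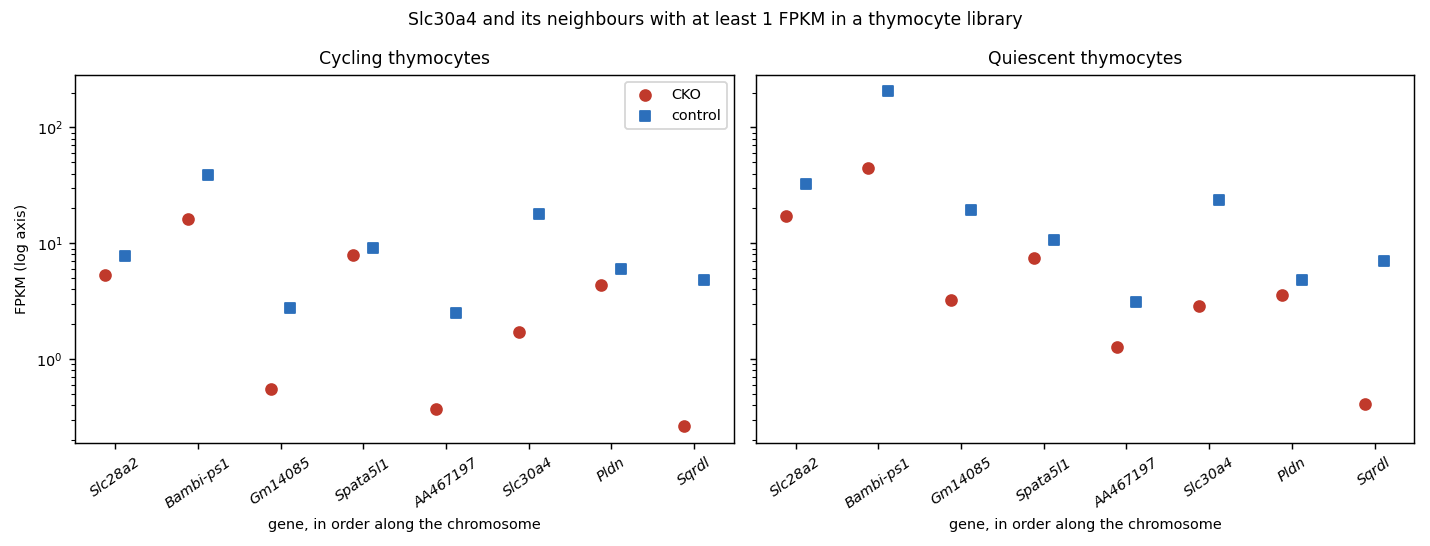
FPKM (log axis) of Slc30a4 and its 7 neighbours with at least 1 FPKM in a thymocyte library, in order along the chromosome but not to scale, for cycling (left) and quiescent (right) thymocytes; each point is 1 library, CKO as circles and control as squares. Every circle lies below its square, with the widest gaps at Slc30a4 and Sqrdl.

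The genes whose levels ran most like those of Slc30a4 over the 10 libraries were found by Pearson's r on log2 of FPKM + 1 among 8020 genes with a mean of at least 5 FPKM. The highest was Lamc1, a laminin subunit, at 0.95. Others among the highest were Mosc2 at 0.93, Pigp at 0.92, and Emid1, Nudt14, Icam2 and Dcaf17 at 0.91. The points share pools, populations and the low granulocyte values. Lamc1 was at 0.96 and 1.63 FPKM in CKO cycling and quiescent thymocytes, against 3.84 and 11.5 FPKM in control. In pre-B cells it was at 7.40 and 9.17 FPKM in CKO large and small cells, against 9.36 and 13.4 FPKM in control, so that it too was far lower in the CKO thymocytes and moderately lower in the CKO pre-B cells. Lamc1 was picked by its likeness to Slc30a4 over these same libraries, so the shared pattern was selected for and is only a description. The other genes named had log2 ratios of CKO to control nearer to 0 in cycling thymocytes, between -0.65 (Pigp) and -0.33 (Dcaf17). In quiescent thymocytes theirs ran between -1.26 (Emid1) and -0.38 (Dcaf17), and in small pre-B cells between -1.11 (Emid1) and 0.14 (Nudt14).

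Most other members differed between thymocytes and pre-B cells, which are of different lineages and also of different organs. Thymocytes were compared with pre-B cells in 4 matched pairs of libraries, cycling with large and quiescent with small in each genotype, with each pair as a block in limma. Of the 10 members 4 were higher in thymocytes, beside 30.8% of 11126 genes tested, and 4 were lower, beside 33.0%. Organ and lineage cannot be told apart here. The median log2 difference over the 10 members was -0.19, beside -0.05 over all genes.

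Slc30a1 (ENSMUSG00000037434.7, chr1:191906767-191913247, plus strand), the plasma membrane exporter, was the member that differed most between the lineages. It was at 26.2 and 23.5 FPKM in CKO and control cycling thymocytes and at 32.0 and 29.5 FPKM in CKO and control quiescent thymocytes, against 2.24 and 1.85 FPKM in large and 3.80 and 4.07 FPKM in small pre-B cells of CKO and control mice. The 4 thymocyte libraries stood far above the 4 pre-B libraries, and the genotypes lay side by side. The log2 difference was 2.89 ± 0.12 (SE; adjusted p = 8.03e-05, limma), higher in 4 of 4 pairs. Slc30a1 ranked second among the members in each thymocyte library and last in each pre-B library. Granulocytes lay between, at 4.70 FPKM in CKO and 7.03 FPKM in control. Its promoter is the one printed above with the core at -43 and 31.

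Slc30a5 (ENSMUSG00000021629.10, chr13:100802648-100833427, minus strand), the larger partner of the secretory pathway heterodimer, ran the other way. It was at 23.5 and 23.1 FPKM in CKO and control cycling thymocytes and at 25.1 and 23.9 FPKM in CKO and control quiescent ones. In pre-B cells it was at 60.9 and 63.2 FPKM in the large and at 74.9 and 92.2 FPKM in the small cells of CKO and control mice. All pre-B libraries lay above all thymocyte libraries, and the gene was the most abundant member in each of the 4 pre-B libraries. The log2 difference of thymocytes to pre-B cells was -1.55 ± 0.12 (SE; adjusted p = 0.000368, limma), lower in 4 of 4 pairs.

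Its partner Slc30a6 (ENSMUSG00000024069.14, chr17:74395608-74424221, plus strand) moved in the same direction by less. It was at 3.80 and 4.44 FPKM in CKO and control cycling thymocytes and 3.15 and 4.08 FPKM in CKO and control quiescent thymocytes, against 6.77 and 5.90 FPKM in large and 6.21 and 6.82 FPKM in small pre-B cells of CKO and control mice. The log2 difference was -0.61 ± 0.12 (SE; adjusted p = 0.00671, limma). Slc30a5 transcript was thus in excess of Slc30a6 in every library, with an FPKM ratio of 6.19 and 5.21 in CKO and control cycling thymocytes and 7.97 and 5.85 in quiescent ones. In pre-B cells the ratio was 8.99 and 10.7 in CKO and control large cells and 12.1 and 13.5 in small cells, and in granulocytes only 1.36 in CKO and 1.84 in control. Slc30a7 (ENSMUSG00000054414.4, chr3:115938973-116007406, minus strand), which acts in the same compartment, was low in all lymphoid libraries, at 2.46 to 4.72 FPKM, and its difference between thymocytes and pre-B cells was -0.08 with a 95% interval of -0.38 to 0.22 (adjusted p = 0.571, limma).

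The mitochondrial Slc30a9 (ENSMUSG00000029221.15, chr5:67306955-67358443, plus strand) was among the evenest members, with 11.2 to 21.8 FPKM over the 10 libraries. It was slightly lower in thymocytes, by -0.30 ± 0.09 (SE; adjusted p = 0.0325, limma), with 11.2 and 12.6 FPKM in CKO and control cycling thymocytes and 13.9 and 19.3 FPKM in quiescent ones, against 15.02 and 16.4 FPKM in large and 17.7 and 20.8 FPKM in small pre-B cells of CKO and control mice. The ranges of both lineages overlapped. The call was lost without the cycling CKO pair (adjusted p = 0.131, limma), without the cycling control pair (0.112) and without the quiescent CKO pair (0.112). For Slc30a4 the estimate over all 4 pairs was -0.81 ± 0.47 (SE; adjusted p = 0.178, limma), with a 95% interval of -1.98 to 0.36. It mixes opposite signs: the differences were -2.09 and -1.68 in the CKO pairs and 0.16 and 0.38 in the control pairs. The CKO thymocyte values chose this gene, so the estimate and the CKO pairs are a description, and nothing is read from the test.

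Among the importers Slc39a6 (ENSMUSG00000024270.11, chr18:24579881-24603817, minus strand), known to take part in T cell activation in human cells, was the most different. It was at 18.3 and 18.6 FPKM in CKO and control cycling thymocytes and at 17.8 and 18.0 FPKM in CKO and control quiescent thymocytes. In pre-B cells it was at 9.36 and 8.03 FPKM in the large and 5.56 and 4.73 FPKM in the small cells of CKO and control mice. The thymocyte libraries agreed within 1 FPKM of each other and all lay above the pre-B libraries. The log2 difference was 1.32 ± 0.16 (SE; adjusted p = 0.00152, limma). Its start overlaps Elp2 on the opposite strand, which reached 29.9 FPKM, so that without a strand setting reads of both genes near that end cannot be told apart.

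Slc39a10 (ENSMUSG00000025986.6, chr1:46807544-46892852, minus strand), the close relative of Slc39a6 that B cells are known to need, ran in the opposite direction. It was at 3.07 and 3.69 FPKM in CKO and control cycling thymocytes and at 3.49 and 3.25 FPKM in CKO and control quiescent thymocytes, against 8.42 and 7.61 FPKM in large and 5.97 and 6.12 FPKM in small pre-B cells of CKO and control mice. All pre-B libraries were above all thymocyte libraries, with a log2 difference of -0.87 ± 0.13 (SE; adjusted p = 0.00298, limma). Slc39a6 exceeded Slc39a10 in every thymocyte library, while in small pre-B cells Slc39a10 was slightly above Slc39a6 in both genotypes.

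Slc39a7 (ENSMUSG00000024327.16, chr17:34028269-34031682, minus strand), the importer of the endoplasmic reticulum and Golgi, was the most abundant member in all 4 thymocyte and both granulocyte libraries and second in the 4 pre-B libraries. It was at 51.3 and 48.2 FPKM in CKO and control cycling thymocytes and 68.9 and 76.9 FPKM in quiescent ones, against 31.6 and 35.4 FPKM in large and 38.0 and 44.2 FPKM in small pre-B cells of CKO and control mice. Thymocytes were higher, by 0.68 ± 0.10 (SE; adjusted p = 0.00255, limma). Slc39a1 (ENSMUSG00000052310.9, chr3:90248172-90253612, plus strand) varied least of the 10, 1.70-fold between its lowest and highest library (15.3 and 26.0 FPKM). It too was higher in thymocytes, by 0.40 ± 0.09 (SE; adjusted p = 0.0131, limma), but without either cycling pair the adjusted p by limma was 0.0546 or 0.0559.

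**Figure D4:**
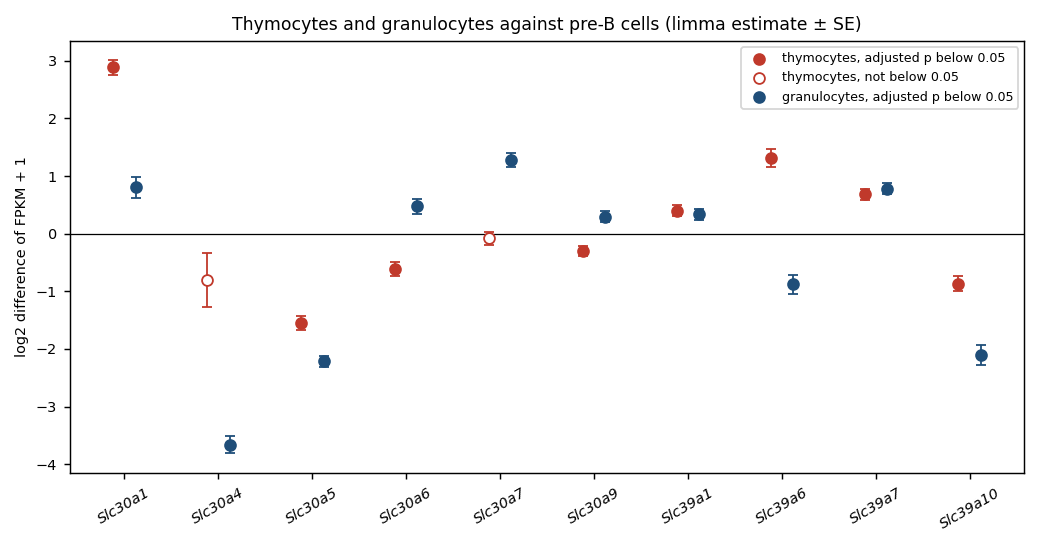
Log2 difference of FPKM + 1 (vertical axis, limma estimate with its SE) of thymocytes to pre-B cells (red, 4 matched pairs) and of granulocytes to pre-B cells (blue, 6 bone marrow libraries) for each member; filled points had an adjusted p below 0.05. Slc30a1 (2.89) and Slc39a6 (1.32) stand highest for thymocytes, Slc30a5 (-1.55) lowest, and Slc30a4 has the widest error there because its CKO and control pairs went opposite ways.

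Slc30a4, Slc30a5 and Slc39a10 were far lower and Slc30a7 was higher in granulocytes than in pre-B cells. Against the mean of large and small pre-B cells, with genotype as a block, all 10 members were called by limma: 6 higher, beside 42.2% of 11187 genes tested, and 4 lower, beside 37.3%. Most genes were called in this comparison, so a high count among the members was near the background. The median over the members was 0.32, beside 0.06 over all genes. Slc30a4 was at 0.11 FPKM in CKO and 0.21 FPKM in control granulocytes, against 10.6 to 17.9 FPKM in the 4 pre-B libraries. The log2 difference of -3.66 ± 0.15 (SE; adjusted p = 3.10e-05, limma) understates the gap, since 1 is added to values near 0. Slc30a4 reached 1 FPKM, the level needed to be tested, in the pre-B libraries alone, so nothing is read from its call. Slc39a10 was nearly as scarce, at 0.57 FPKM in CKO and 1.19 FPKM in control granulocytes (log2 difference -2.10 ± 0.17 SE, adjusted p = 0.000241, limma). Slc30a5 fell to 13.8 FPKM in CKO and 15.6 FPKM in control granulocytes, a log2 difference of -2.21 ± 0.09 (SE; adjusted p = 3.29e-05, limma), and Slc39a6 to 2.71 FPKM in CKO and 3.71 FPKM in control (-0.88 ± 0.17 SE, adjusted p = 0.00526, limma).

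The secretory pathway member Slc30a7 did the reverse and was highest in granulocytes, at 9.69 FPKM in CKO and 9.32 FPKM in control, a log2 difference of 1.28 ± 0.13 (SE; adjusted p = 0.000470, limma). Slc30a6 was also highest there, at 10.2 FPKM in CKO and 8.46 FPKM in control (0.47 ± 0.13 SE, adjusted p = 0.0209, limma). Slc39a7, at 64.4 FPKM in CKO and 64.6 FPKM in control granulocytes, was higher by 0.78 ± 0.09 (SE; adjusted p = 0.000836, limma). The remaining 3 calls were small or depended on the pre-B population: Slc30a1 (0.80), Slc39a1 (0.34) and Slc30a9 (0.30) were no longer called against small pre-B cells alone, with adjusted p-values by limma of 0.0979, 0.293 and 0.267. Granulocyte libraries had summed FPKM of 1074923 in CKO and 830548 in control, against 360607 to 432148 in the 8 lymphoid libraries, and the part of that in these differences was not tested. Nor was the part of the cells that gave the Mki67 transcript in the granulocyte libraries, given above.

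Within a lineage the estimated stage effect of each member, on log2 of FPKM + 1, was less than 2-fold. Without the added 1, Slc30a1 in control pre-B cells differed by more, with 1.85 FPKM in large and 4.07 FPKM in small cells. Quiescent thymocytes were compared with cycling thymocytes, and small with large pre-B cells, in 1 limma fit that blocked on the combination of lineage and genotype. The part of the Mki67 transcript left in the CKO quiescent and small libraries, given above, was not tested. In quiescent thymocytes 3 of 10 members were higher, beside 25.2% of 11126 genes, and 0 were lower, beside 19.7%. The median over the members was 0.23, beside 0.06 over all genes. Slc39a7 was at 68.9 FPKM in CKO and 76.9 FPKM in control quiescent thymocytes, against 51.3 and 48.2 FPKM in CKO and control cycling ones, a log2 difference of 0.54 ± 0.11 (SE; adjusted p = 0.0136, limma). Slc30a4 was higher in quiescent cells of both genotypes, by 0.51 in CKO and 0.37 in control (mean 0.44 ± 0.11 SE, adjusted p = 0.0272, limma), and Slc30a9 by 0.29 in CKO and 0.58 in control (0.43 ± 0.12 SE, adjusted p = 0.0363, limma). With 2 pairs the calls were not firm: without the CKO thymocyte pair only Slc39a7 was called, and without the control thymocyte pair no member was, in a fit that called 4 genes in all.

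Small pre-B cells had 4 of 10 members higher than large pre-B cells, beside 25.6% of 11126 genes, and 1 lower, beside 21.8%. The median over the members was 0.28, beside 0.04 over all genes. Slc30a1 was at 3.80 and 4.07 FPKM in CKO and control small cells, against 2.24 and 1.85 FPKM in CKO and control large cells, a log2 difference of 0.70 ± 0.12 (SE; adjusted p = 0.00978, limma). The secretory pathway members Slc30a7 (0.61 ± 0.13 SE, adjusted p = 0.0154, limma) and Slc30a5 (0.42 ± 0.11 SE, adjusted p = 0.0270, limma) and the importer Slc39a1 (0.39 ± 0.11 SE, adjusted p = 0.0322, limma) were also higher. Slc39a6 was the 1 lower member, at 5.56 and 4.73 FPKM in CKO and control small cells, against 9.36 and 8.03 FPKM in CKO and control large cells (-0.66 ± 0.11 SE, adjusted p = 0.00818, limma). In both genotypes the difference of Slc39a6 was -0.66, yet with either pre-B pair left out no member was called.

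The test of the difference between the thymocyte and the pre-B stage effect called 0 of 10 members, beside 3.62% of genes with a higher and 3.22% with a lower effect in thymocytes. Slc39a6 came closest, with an effect of -0.04 in thymocytes (95% interval -0.31 to 0.23) and of -0.66 in pre-B cells, a difference between the effects of 0.62 ± 0.15 (SE; adjusted p = 0.0722, limma); it was the 1 member with an unadjusted p below 0.05, which 1646 genes with a higher and 1490 with a lower effect also had. A stage effect of a member that was called in one lineage only is therefore not shown to differ between the lineages.

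**Figure D5:**
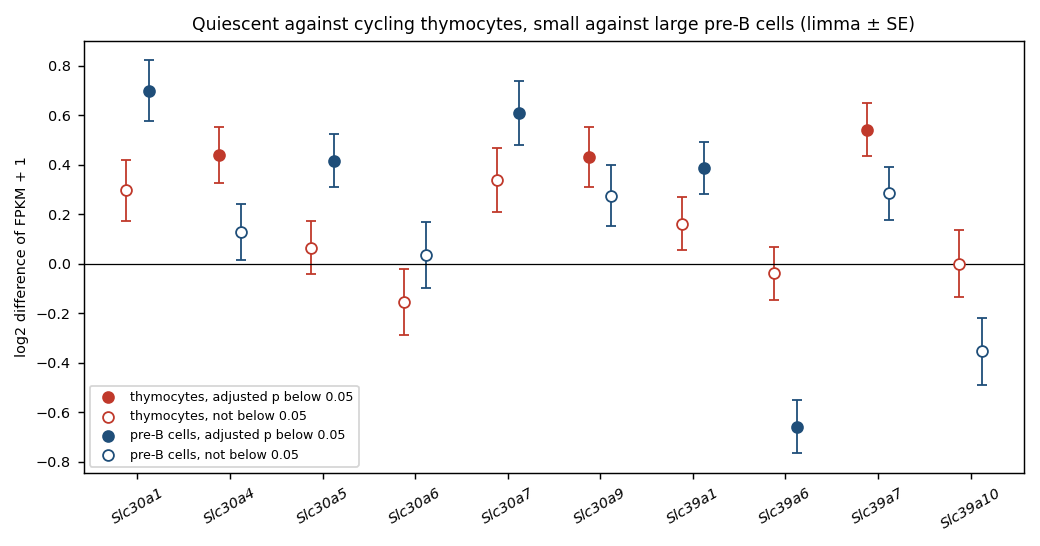
Log2 difference of FPKM + 1 (vertical axis, limma estimate with its SE) of quiescent to cycling thymocytes (red) and of small to large pre-B cells (blue) for each member; filled points had an adjusted p below 0.05. Most points lie above 0, Slc30a1 (0.70) and Slc30a7 (0.61) highest for pre-B cells and Slc39a7 (0.54) highest for thymocytes, with Slc39a6 (-0.66) lowest for pre-B cells.

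The other 14 genes of the families were mostly silent or low. Of these, 7 were under 1 FPKM in all 10 libraries, including Slc39a5 and Slc39a12, listed at 0 throughout, and 7 reached 5 FPKM somewhere. Slc39a11, a Golgi member of the ZIP family, was at 39.9 FPKM in CKO and 62.7 FPKM in control granulocytes, against 1.09 to 4.82 FPKM in pre-B cells, a log2 difference of 3.68 ± 0.30 (SE; adjusted p = 0.000245, limma). Slc39a4, the intestinal zinc importer, was at 2.17 FPKM in CKO and 7.75 FPKM in control granulocytes and at 0.28 FPKM or less in every lymphoid library. Slc39a8 was at 7.21 and 9.58 FPKM in CKO cycling and quiescent thymocytes and at 6.48 and 6.11 FPKM in control ones, and was higher in thymocytes than in pre-B cells (1.71 ± 0.21 SE, adjusted p = 0.00147, limma). Of the 6 genes of this list that were tested between thymocytes and pre-B cells, 3 were higher (Slc39a8, Slc39a14 and Slc39a3), beside 30.8% of all genes, and 0 lower, beside 33.0%. Between granulocytes and pre-B cells 3 of 7 were higher and 2 lower, beside 42.2% and 37.3% of all genes. The 2 lower, Slc39a14 and Slc39a8, reached 1 FPKM, the level needed to be tested, in pre-B libraries alone. Slc39a4, called higher, did so in the granulocyte libraries alone, and nothing is read from the calls of these genes. Between small and large pre-B cells 0 of 6 were higher and 2 lower (Slc39a11 and Slc39a8), beside 25.6% and 21.8%. Between quiescent and cycling thymocytes 1 of 6 was higher (Slc39a13, 0.90 ± 0.13 SE, adjusted p = 0.00770, limma) and 0 lower, beside 25.2% and 19.7%. None of the 7 was called between CKO and control in bone marrow.

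A list of 14 genes that bind, sense, use or channel zinc gave the setting of the transporters. The metallothioneins, which buffer zinc, were lower in small than in large pre-B cells. Mt1 was at 3.43 and 1.10 FPKM in CKO and control small pre-B cells, against 15.2 and 30.6 FPKM in CKO and control large pre-B cells, a log2 difference of -2.89 ± 0.45 (SE; adjusted p = 0.00750, limma). Mt2 was lower in small pre-B cells too (-1.64 ± 0.15 SE, adjusted p = 0.00284, limma) and in quiescent thymocytes (-1.33 ± 0.15 SE, adjusted p = 0.00647, limma). Its levels were low, at 0.24 and 0 FPKM in CKO and control small pre-B cells, against 2.36 and 2.575 FPKM in large ones. A 0 can be a failed estimate. In thymocytes it was at 1.30 and 1.04 FPKM in CKO and control quiescent cells, against 4.96 and 3.94 FPKM in cycling ones. Some markers of other cells moved with Mt1. The summed level of 4 erythroid markers was 0.85 and 0.69 FPKM in CKO and control small pre-B cells (0 of 4 at 1 FPKM or more), against 9.79 and 17.6 FPKM in CKO and control large pre-B cells (4 of 4). The granulocyte list as a whole summed to 468.5 and 619 FPKM in CKO and control small cells, against 439.7 and 834 FPKM in CKO and control large cells. Its early members moved as Mt1 did, Elane with 3.71 and 6.87 FPKM in CKO and control small cells, against 115 and 251 FPKM in CKO and control large cells, and Mpo with 4.57 and 6.48 FPKM, against 159 and 365 FPKM. Csf3r was lower in small cells too. The rest of the list went the other way in both genotypes: Ltf, Camp, Ngp, Lcn2, S100a8, S100a9 and Mmp8 were higher in small cells. S100a8 was at 220.8 and 271.8 FPKM in CKO and control small cells, against 84.08 and 104.4 FPKM in large cells. None of these markers was listed at 0 in a pre-B library, and their part in the Mt1 difference was not tested. Slc30a1, whose promoter shares the metal response core with Mt1, was higher in the small pre-B cells in which Mt1 was lower. Mtf1, the sensor, was at 3.12 to 5.51 FPKM in the lymphoid libraries and at 11.5 FPKM in CKO and 11.04 FPKM in control granulocytes (1.31 ± 0.13 SE against pre-B cells, adjusted p = 0.000433, limma).

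Tmem163, a vesicular zinc transporter without an SLC30 or SLC39 symbol, was found almost only in small pre-B cells. It was at 13.7 FPKM in CKO and 25.6 FPKM in control there, against 0.96 and 1.92 FPKM in CKO and control large pre-B cells. The log2 difference was 3.05 ± 0.13 (SE; adjusted p = 0.00178, limma). Alpl, an alkaline phosphatase that takes up its zinc in the secretory pathway, was at 5.46 and 7.89 FPKM in CKO and control small pre-B cells, against 14.3 and 18.9 FPKM in CKO and control large pre-B cells (-1.20 ± 0.12 SE, adjusted p = 0.00352, limma), and at or under 0.16 FPKM elsewhere. Tmc6 and Tmc8, membrane proteins reported to bind ZnT1 in human cells, were higher in quiescent thymocytes (1.09 ± 0.20 and 1.04 ± 0.21 SE, adjusted p = 0.0115 and 0.0137, limma) and in small pre-B cells (1.13 ± 0.20 and 0.90 ± 0.21 SE, adjusted p = 0.00996 and 0.0193, limma). Over the 12 genes of this list that were tested, 4 were higher and 1 lower in quiescent thymocytes (25.2% and 19.7% of all genes), 4 higher and 3 lower in small pre-B cells (25.6% and 21.8%), 4 higher and 2 lower in thymocytes against pre-B cells (30.8% and 33.0%), and 7 higher and 3 lower in granulocytes against pre-B cells (42.2% and 37.3%). The 2 lower in thymocytes were Tmem163 and Alpl, and the 3 lower in granulocytes were these and Mt2. In those fits they reached 1 FPKM, the level needed to be tested, in pre-B libraries alone, so nothing is read from these calls. None of the 12 was called between CKO and control in bone marrow, where the median was 0.00, beside -0.02 over all genes.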

How the data were processed

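Per the labels' protocols, total RNA of stained, sorted cells was extracted with RNeasy kits and made into standard Illumina libraries. Per the submitters' processing notes, TopHat2 2.0.8b and Cuffdiff 2.1.1 were used with mm10; the annotation and the read strand setting are not given in the sources used here. The deposited values were read as FPKM, a unit that no label states and that rests on the authors' tools and the range of the numbers. Each table held 23179 rows; 201 were exact repeats, 158 symbols had several rows, of which the most abundant was used, and 22923 symbols remained. Depth is unknown. For genes with low values the most common ratio to control cycling thymocytes, a rough weight of 1 fragment, was 1.04 to 1.32 for lymphoid libraries but 2.36 for CKO and 2.11 for control granulocytes, where low values are therefore coarser. A 0 can be a failed estimate.

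CKO and control were compared within a population as log2 of FPKM + 1, which understates changes of low genes, with no test (1 library each). Tests used limma 3.58.1 in R 4.3.3 (limma-trend) on genes that reached 1 FPKM in 2 or more of the libraries fitted, with Benjamini-Hochberg adjustment over all genes tested, a threshold of 0.05 and 2 or 3 residual degrees of freedom. The same fits on simulated data recovered 99.5% to 100% of 200 genes changed 2-fold, and called 7 to 11 unchanged genes. That simulation gave every gene the same independent noise and changed only genes above a low level. It therefore does not show how well 2-fold changes are found in these libraries, which share pools. Each test was repeated with a pseudocount of 0.1 or 5, with a stricter or no filter, after median-ratio rescaling, unblocked, and with library pairs left out. The members, gene lists, markers and tests were chosen with earlier results of these data known. All 10 members are named; of the family and zinc lists, those at 5 FPKM or more in a library or called could be named; neighbours were the 6 genes with a row on each side of Slc30a4, and genes like it the 8 with the highest r, leaving out Y-linked, predicted and receptor segment genes. One gene found by the last rule is not reported here. Gene positions are from GENCODE vM21, and neighbours and promoters from RefSeq GRCm38.p6. Other steps used Python 3.11.15 (numpy 2.4.6, pandas 2.3.3, matplotlib 3.10.9).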

Additional observations from a re-analysis of the deposited data

Results flagged for a closer look

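For 2 genes the stage effect in thymocytes minus that in pre-B cells was called by limma, Tmem163 at -2.99 on the log2 scale and Alpl at 1.10. Both are nearly absent from thymocytes, at 0.17 FPKM or less for Tmem163 and 0.08 FPKM or less for Alpl, and passed the filter on low values through the pre-B libraries alone. The difference therefore repeats the stage effect in pre-B cells, 3.05 for Tmem163 and -1.20 for Alpl, and shows nothing of a stage effect in thymocytes.

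For Slc30a5 the ratio of CKO to control was slightly above 1 in both thymocyte populations and below 1 in both pre-B populations, and the mean log2 ratio was higher in thymocytes than in pre-B cells by 0.22. For Slc39a6 the signs were the reverse, and the mean in thymocytes minus that in pre-B cells was -0.22. Neither difference was tested, and none of these ratios reached 2-fold.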

How the results depend on the processing

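Of 524 values of members in the tests, 479 kept their direction and their side of the threshold under the alternatives tried, 35 lost the call, 0 gained one and 10, all of values not called, changed sign. Without the granulocyte pair the bone marrow genotype difference was 0.0512 for Slc30a1, 0.0045 for Slc39a1 and 0.049 for Slc39a10; without the large pre-B pair it was -0.0748 for Slc39a6; and without the small pre-B pair it was 0.0436 for Slc30a7, 0.027 for Slc39a1 and -0.0731 for Slc39a6. The thymocyte stage effect of Slc39a10 was 0.0008 with a pseudocount of 0.1 and 0.14 without the control thymocyte pair, and the pre-B stage effect of Slc30a6 was -0.11 without the control pre-B pair. The causes were not tested. All 150 ratios of CKO to control stayed on the same side of 2-fold. In quiescent against cycling thymocytes the 3 members called became 1 with no filter on low values (more genes tested), 1 with no block, 1 without the CKO thymocyte pair, 0 without the control thymocyte pair and 1 without the CKO pre-B pair. In small against large pre-B cells the 5 members called became 0 without the CKO pre-B pair and 0 without the control pre-B pair. Leaving out pairs in these stage tests, and the CKO small pre-B library in the granulocyte test, was chosen after seeing the data. Leaving out a pair leaves 1 residual degree of freedom, with the lone pair assumed to vary like the other lineage. Between thymocytes and pre-B cells 6 to 8 members were called, and between granulocytes and pre-B cells 7 to 10. Over all genes, the bone marrow genotype test called 0, but 6 with a pseudocount of 0.1, 1 without the small pre-B pair and 528 without the granulocyte pair; small against large pre-B cells called 5277, but 1426 without the CKO pre-B pair and 3 without the control pre-B pair; the difference of stage effects called 761 genes, 361 with a pseudocount of 0.1, 14 with no block and 0 with no filter or without the CKO pre-B pair. In cycling thymocytes the log2 ratio of Slc30a4 was -3.31 with a pseudocount of 0.1 and -1.77 with 5. The labels give no replicate numbers. Libraries were therefore paired by population, stage and genotype, and the blocks of the tests stand for these and not for numbered replicates. The unknown depth limits what low values can show, above all in granulocytes.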
